A study of Mus musculus with 15 samples.

Results

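The genes described here are 36 components of phosphoinositide 3-kinase (PI3K), Akt and mTOR signalling, measured in regulatory T cells (Treg) from mouse spleen. They were listed by gene symbol. Each was read from the array's transcript cluster annotated to that gene alone, or from the brightest one where a gene had several. All 36 were measured, among 19752 genes in all. Of these 36 genes, 35 had a mean intensity above the median of all genes, and Deptor was the exception.

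There were 15 Affymetrix Mouse Gene 1.0 ST arrays in 4 genotype groups. The first group, called N1c_RBPJdel here, held 3 arrays of Foxp3EGFPCreR26N1c/N1cRBPJ∆/∆ Treg. The second, N1c, held 4 arrays of Foxp3EGFPCreR26N1c/N1c Treg. The third, RBPJdel, held 4 arrays of Foxp3EGFPCreRBPJ∆/∆ Treg, and the control group held 4 arrays of Foxp3EGFPCre Treg. All groups therefore carried the Foxp3EGFPCre allele, which expresses a green fluorescent Cre recombinase in Foxp3+ cells. In the R26N1c allele, Cre switches on the active intracellular part of the receptor Notch1 from the Rosa26 locus. In RBPJ∆/∆ cells, Cre has removed RBPJ, the DNA-binding protein through which active Notch turns on its target genes. All mice were 6-week-old males, and each array held sorted cells pooled from several mice. The p-values below therefore measure the spread between pools. A FACSAria was used for the N1c_RBPJdel sorts and a MoFlo for those of the other 3 groups, so this genotype and its sorter cannot be told apart.

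PI3K phosphorylates a membrane lipid, which recruits PDK1 and Akt to the membrane, and lipid phosphatases such as SHIP1 and INPP4B reverse this. The kinase mTOR works in complexes with different subunits. mTORC1, built on Raptor, drives protein synthesis and growth, and mTORC2, built on Rictor, phosphorylates Akt and SGK1. Akt in turn inactivates the TSC complex, the FOXO transcription factors and GSK3. In Treg, strong PI3K and Akt activity is known to weaken Foxp3-dependent function, whereas some mTORC1 activity is needed for suppression. The arrays measured transcripts and not kinase activity or phosphorylation. In such sorted bulk samples, fewer cells of a type and less RNA per cell cannot be told apart.

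The checks on the groups came out as follows. Rbpj intensity was 175, 258 and 201 in N1c_RBPJdel cells and 489 to 572 in N1c cells, and 225 to 294 in RBPJdel cells against 470.3 to 571 in control cells. Rbpj thus fell in both groups labelled RBPJ∆/∆ (log2 difference -1.32, SE 0.13, adjusted p = 7.8e-06 for N1c_RBPJdel against N1c, and -0.90, SE 0.12, adjusted p = 0.00213 for RBPJdel against control, limma). Foxp3, the defining factor of Treg, lay between 3543 and 6248 on all 15 arrays and passed the test in none of the comparisons. Of 12 Notch target genes, 5 rose and 1 fell in N1c cells against control cells, and 5 fell in N1c_RBPJdel cells against N1c cells. The 15 measured proliferation genes summed to 3929.5 to 4753 in N1c_RBPJdel cells, against 5684 to 7559 in N1c, 4547 to 6935 in RBPJdel and 4197 to 5518 in control cells. Of 10 neutrophil markers, the summed intensity was 760.1 to 923 in N1c_RBPJdel cells, against 554 to 653 in N1c, 537 to 623 in RBPJdel and 557 to 613 in control cells. For the 10 measured erythroid and platelet markers it was 921 to 1707 in N1c_RBPJdel cells, against 686 to 830.3 in N1c, 711 to 826 in RBPJdel and 693 to 731 in control cells. The 9 measured B cell markers summed to 910.4 to 1265 in N1c_RBPJdel cells, against 813 to 965 in RBPJdel and 782 to 821 in control cells. In N1c cells the sum was 1768 to 2509, most of it Cd22. The upper quartile of all genes was 304 on N1c_RBPJdel arrays 1 and 3 and 350.3 on array 2, against 320.2 to 364 on the other 12 arrays. The part of these markers and of the array scale in the differences of the N1c_RBPJdel group was not tested.

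The promoters of the 4 genes that passed the test in N1c_RBPJdel cells against N1c cells are shown first, because RBPJ binds DNA and FOXO factors are switched off by Akt. The windows are RefSeq promoters of build GRCm38.p6, from 250 bases before to 50 bases after the annotated start, and 33 of the 36 genes matched the table. The motifs searched on both strands were TGGGAA for RBPJ and TGTTTAC for FOXO, and capitals mark a match. The Rictor window (chr15:6708131-6708430, plus strand) held an RBPJ motif starting 238 bases before the start. Of 2 annotated Pik3cg windows, the one shown (chr12:32208421-32208720, minus strand) held a FOXO motif on the opposite strand, 92 bases before the start. The other (chr12:32208610-32208909) held neither motif. The Gsk3b window (chr16:38088751-38089050, plus strand) and the Sgk1 window (chr10:21994416-21994715, plus strand, 1 of 6 annotated) held neither.
Sgk1: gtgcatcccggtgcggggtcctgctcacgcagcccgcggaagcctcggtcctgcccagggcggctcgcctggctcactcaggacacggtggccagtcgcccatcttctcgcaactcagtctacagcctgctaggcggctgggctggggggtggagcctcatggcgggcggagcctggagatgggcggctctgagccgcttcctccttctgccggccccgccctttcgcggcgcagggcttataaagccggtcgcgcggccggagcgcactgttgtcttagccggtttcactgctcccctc
Gsk3b: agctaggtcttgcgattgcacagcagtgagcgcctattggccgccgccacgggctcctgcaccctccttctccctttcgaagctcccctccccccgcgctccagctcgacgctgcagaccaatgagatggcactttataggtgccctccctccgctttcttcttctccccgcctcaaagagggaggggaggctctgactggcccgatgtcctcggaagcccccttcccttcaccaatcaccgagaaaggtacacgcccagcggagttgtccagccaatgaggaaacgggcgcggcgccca
Pik3cg: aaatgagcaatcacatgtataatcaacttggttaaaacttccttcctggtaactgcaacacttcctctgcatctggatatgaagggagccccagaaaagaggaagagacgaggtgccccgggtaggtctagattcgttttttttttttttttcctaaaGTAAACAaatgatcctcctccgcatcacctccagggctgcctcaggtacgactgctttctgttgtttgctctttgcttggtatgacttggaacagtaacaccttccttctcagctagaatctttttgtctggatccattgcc
Rictor: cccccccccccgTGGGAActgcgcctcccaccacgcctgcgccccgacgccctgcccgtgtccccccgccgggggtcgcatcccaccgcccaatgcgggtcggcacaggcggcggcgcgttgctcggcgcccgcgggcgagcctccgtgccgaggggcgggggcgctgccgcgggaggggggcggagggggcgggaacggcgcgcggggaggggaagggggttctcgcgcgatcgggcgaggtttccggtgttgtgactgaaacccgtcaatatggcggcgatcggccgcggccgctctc
The RBPJ motif was in 14 of 50 windows of these genes, or 28%, against 25.6% of all 32851 windows. The FOXO motif was in 5 of 50, or 10%, against 3.65% of all windows, and its genes were Akt1, Mapkap1, Pik3cg and Sesn1. The Mapkap1 windows overlap and hold the same site, which was counted in each. By gene, the FOXO motif was in 4 of 33, beside 4.05% of all genes, and the RBPJ motif in 11 of 33, beside 28.3%. A match describes the letters in a window and not a bound site.

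With active Notch1 (N1c against control), no gene of the pathway list passed the unpaired test over all genes as deposited. After quantile normalization 1 passed, Sesn1, which was lower. When same-numbered arrays of these groups were paired 2 passed: Sgk1 was higher and Ddit4 lower. Sgk1 had the largest difference. In that comparison 1.65% of all genes were called at an adjusted p under 0.05, and 0 of the 36 were (limma, unpaired). With the replicate number as a block in these groups alone, 388 genes were called, 2 of them among the 36. At an unadjusted p under 0.05 there were 4 of 36, against 8.21% of all genes. Arrays of the groups did not overlap for 6 of the 36, against 5.73% of all genes. Sgk1 was the 1 that lay higher, and Pik3cb, Pik3r1, Tsc2, Rptor and Sesn1 lay lower. The median log2 difference of the 36 was -0.06, against -0.01 for all genes and -0.02 for the genes brighter than the median. Below 0 were 25 of the 36, beside 52.2% of all genes and 54.3% of those brighter genes.

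Sgk1 encodes a kinase related to Akt that mTORC2 and PDK1 activate and that has been studied in helper T cell differentiation. Its intensity was 326, 224, 311 and 278 in N1c cells, against 125, 112, 200.1 and 201 in control cells. Every N1c array was above every control array. The log2 difference was 0.87 (SE 0.22, 95% interval 0.42 to 1.33, n = 4 each), which missed the threshold (unpaired limma, adjusted p = 0.0515). With the replicate number as a block over all arrays it passed (limma, log2 difference 0.78, adjusted p = 0.00789), though the other groups were not taken as pairs. With the block in these groups alone it also passed (0.65, adjusted p = 0.0163). Same-numbered arrays of these groups deviated together, but so did some differently numbered ones (N1c 2 with control 3, r = 0.35). The 3 same-numbered pairs differed by 0.85, 0.63 and 0.46, all in the direction of N1c. The call was also made without N1c 2, RBPJdel 4, control 4 or control 5. It was made under 8 of 25 alternatives, over which the adjusted p ran between 0.003 and 0.2. It was not made after quantile normalization (log2 difference 0.85, adjusted p = 0.0773) or when only these groups were fitted. In the block over all arrays the number of all genes called was 494, against 326 without it.

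**Figure D1:**
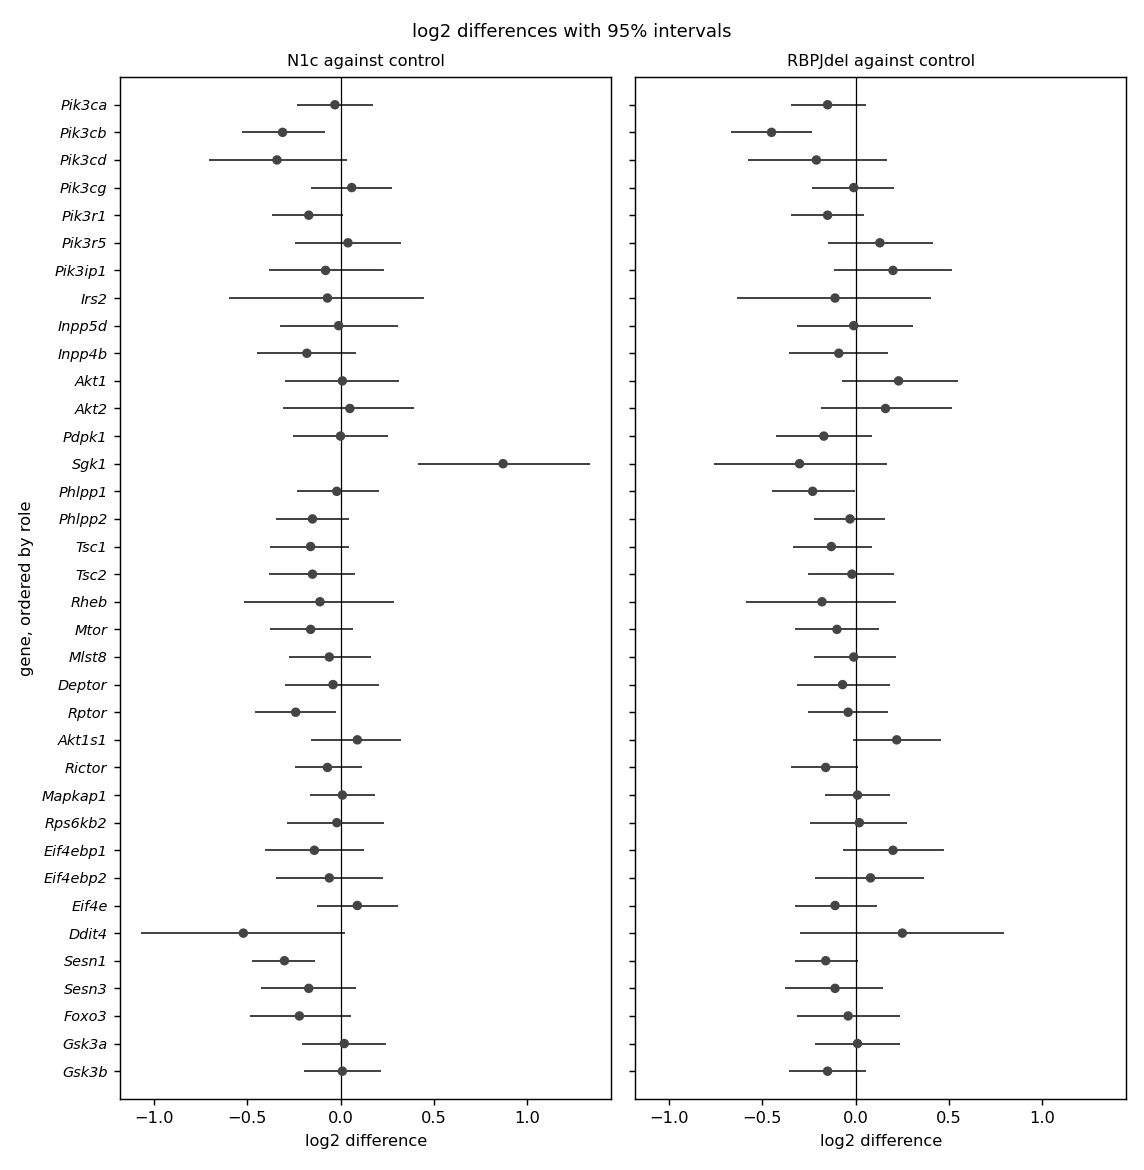
Log2 differences of the 36 genes for N1c against control (left) and RBPJdel against control (right), points with 95% intervals from limma, genes ordered by role. Sgk1 in N1c stands at 0.87, and most other points lie within 0.3 of 0.

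The other 3 genes with the lowest adjusted p in this comparison lay lower. Sesn1 encodes a sestrin, a stress-induced inhibitor of mTORC1. It had 1987, 1836, 1706 and 1831 in N1c cells, against 2140.2, 2323, 2247 and 2359 in control cells (log2 difference -0.30, SE 0.08, adjusted p = 0.0711, called under 4 of 25 alternatives). Pik3cb, a PI3K catalytic subunit, had 168, 211, 212 and 192 in N1c cells, against 216, 221, 270.1 and 264 in control cells (log2 difference -0.31, SE 0.10, adjusted p = 0.212). Rptor, which encodes Raptor, had 370.5, 351, 329 and 329 in N1c cells, against 393, 435, 422 and 379 in control cells (log2 difference -0.24, SE 0.10, adjusted p = 0.449). None of these 3 pairs of groups overlapped, and none passed the test as deposited. After quantile normalization Sesn1 passed (limma, log2 difference -0.30, adjusted p = 0.0429). Ddit4, an mTORC1 inhibitor chosen here after its values were seen, had a log2 difference of -0.52 (adjusted p = 0.653), and with the block in these groups alone it was -0.69 (adjusted p = 0.0079). That was the only 1 of 25 alternatives to call Ddit4, and its N1c and control arrays overlapped.

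Without RBPJ (RBPJdel against control), no gene of the list passed the test. In that comparison 0.111% of all genes were called and 0 of the 36 were. At an unadjusted p under 0.05 there were 2, Pik3cb and Phlpp1, against 6.74% of all genes. Arrays did not overlap for 5 of the 36, all lower, against 5.89% of all genes. They were Pik3ca, Pik3cb, Pik3r1, Rictor and Sesn1. The median log2 difference was -0.06, against 0.03 for all genes and -0.01 for the genes brighter than the median. Below 0 were 25 of the 36, beside 41.2% of all genes and 51.4% of those brighter genes. Pik3cb had 177, 188, 179 and 163 in RBPJdel cells against 216, 221, 270.1 and 264 in control cells (log2 difference -0.45, SE 0.10, adjusted p = 0.167).

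In the cells with both alleles, 4 of the 36 genes were called lower against N1c cells and 8 against control cells, and none was called higher. Against N1c that is near the share of all genes called. The called genes encode PI3K subunits, a lipid phosphatase, the mTORC2 subunit Rictor, the kinase SGK1, the sestrin Sesn3 and the Akt substrate Gsk3b. Against N1c, 4 of the 36 were called, or 11.1%, beside 9.23% of all genes, and 4.65% of all genes were called lower. Against control, 8 of the 36 were called, or 22.2%, beside 8.9% of all genes, and 5.12% of all genes were called lower. In the fit of the 9876 genes brighter than the median, 1380 were called against control, 10 of them among the 36. Against N1c 1187 were called in that fit, 4 of them among the 36. Against RBPJdel, 0 of the 36 were called (limma), beside 2.29% of all genes, and 13 had an unadjusted p under 0.05, beside 21.2%. At an unadjusted p under 0.05 there were 9 against N1c, beside 26.5% of all genes, and 16 against control, beside 26.4%. The arrays did not overlap for 6 of the 36 against N1c (16.4% of all genes), 10 against RBPJdel (15.8%) and 10 against control (18.7%). These comparisons share the N1c_RBPJdel arrays. In the interaction of the alleles 0 of the 36 were called, beside 0.84% of all genes, and 5 had an unadjusted p under 0.05, beside 12.9%. After quantile normalization the calls were Gsk3b and Sgk1 against N1c and only Gsk3b against control. Without N1c_RBPJdel 1 the only call against control was Gsk3b, and without N1c_RBPJdel 2 there were 13. Without control 2, 3 or 4 there were 2, 2 and 3.

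Sgk1 in N1c_RBPJdel cells had 123, 125 and 91.1, against 326, 224, 311 and 278 in N1c cells. All 3 arrays lay below all 4. The log2 difference was -1.33 (SE 0.23, adjusted p = 0.00215), a fold of 2.52 lower. Only the alternative that kept N1c_RBPJdel 2 alone ended this call, among 25. Against RBPJdel cells, at 110.3, 97.3, 120.3 and 191, and control cells, the groups overlapped and the differences were -0.17 (adjusted p = 0.718) and -0.46 (adjusted p = 0.219). In RBPJdel and control cells, arrays numbered 4 or 5 had 191 to 201 and those numbered 1 to 3 had 97.3 to 125. N1c_RBPJdel has no array numbered 4 or 5, and the part of the number in these differences was not tested. The interaction of the alleles was -1.04 (SE 0.32, adjusted p = 0.158, n = 3 or 4 a group), which did not pass the test.

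Gsk3b, a kinase that Akt inactivates, had 595, 690.3 and 667 in N1c_RBPJdel cells. It had 1035, 1012, 845 and 836 in N1c cells, 840.1, 774, 898 and 811 in RBPJdel cells and 929, 975, 860.1 and 926 in control cells. The N1c_RBPJdel arrays lay below all others. The log2 difference was -0.51 against both N1c (SE 0.10, adjusted p = 0.00572) and control (SE 0.10, adjusted p = 0.00911), and -0.35 against RBPJdel (adjusted p = 0.0743). After quantile normalization it was -0.37 (adjusted p = 0.0162) against N1c and -0.36 (adjusted p = 0.0229) against control. The call against N1c was lost when only these groups were fitted, with the block there (adjusted p = 0.107) and with N1c_RBPJdel 2 alone (adjusted p = 0.112). The call against control was lost with the block in these groups (adjusted p = 0.138) and with N1c_RBPJdel 2 alone (adjusted p = 0.122). Its paralog Gsk3a had log2 differences of -0.05 against N1c, -0.04 against RBPJdel and -0.03 against control.

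Rictor, the defining subunit of mTORC2, had 676, 667 and 791 in N1c_RBPJdel cells. It had 916, 907, 926 and 896 in N1c cells, 876, 859, 877 and 798 in RBPJdel cells and 900.1, 951, 925 and 1046 in control cells. The N1c_RBPJdel arrays lay below all others. The log2 difference was -0.36 against N1c (SE 0.09, adjusted p = 0.0206), -0.43 against control (SE 0.09, adjusted p = 0.011) and -0.26 against RBPJdel (adjusted p = 0.114). After quantile normalization neither call was made (adjusted p = 0.173 against N1c, adjusted p = 0.0899 against control). Without N1c_RBPJdel 1 both calls were lost, and the call against N1c was also lost without N1c 1 or N1c 2. Mapkap1, the other mTORC2 subunit, differed by -0.16 against N1c and by -0.16 against control, and did not pass.

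Among the catalytic subunits of PI3K, Pik3cg, the one activated through G protein-coupled receptors, had 558, 580.4 and 583 in N1c_RBPJdel cells. It had 814, 893, 770.0 and 733 in N1c cells, 776, 863, 790.1 and 634 in RBPJdel cells and 811, 816, 699 and 749 in control cells, with no overlap. It differed by -0.48 against N1c (SE 0.11, adjusted p = 0.0122) and -0.42 against control (SE 0.11, adjusted p = 0.0271), and after quantile normalization neither call was made (21 and 18 of 25 alternatives made them). Pik3ca had 795, 829.8 and 981 in N1c_RBPJdel cells, against 1047, 1129.7, 1074 and 1145 in control cells (log2 difference -0.34, SE 0.10, adjusted p = 0.044). It had 1167, 1183, 949 and 1029 in N1c cells and 961, 1026, 1013 and 972 in RBPJdel cells, which overlapped with N1c_RBPJdel cells. Against N1c the Pik3ca difference was -0.32 (adjusted p = 0.0592). Pik3cd, the subunit most used in lymphocytes, had 679, 717 and 504 in N1c_RBPJdel cells, against 1095, 1112, 1187 and 674 in control cells. It had 869, 891, 851 and 577 in N1c cells and 857, 929, 792 and 865 in RBPJdel cells. N1c_RBPJdel and control arrays overlapped because control 5 was low, and the log2 difference was -0.67 (SE 0.19, adjusted p = 0.0361). Pik3r1, a regulatory subunit, had 1565, 1716 and 2027 in N1c_RBPJdel cells against 2306, 2234, 2316 and 2302 in control cells (log2 difference -0.38, SE 0.10, adjusted p = 0.0228). It had 2140.4, 2031, 1915 and 2033 in N1c cells and 2168, 1959.6, 2121 and 2007 in RBPJdel cells. Pik3cb had 211, 205 and 205 in N1c_RBPJdel cells, 0.09 above N1c and -0.22 against control, and its interaction was 0.54 (adjusted p = 0.109). Pik3ca and Pik3r1 did not overlap with control, and Pik3ca was called under only 10 of 25 alternatives.

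Inpp4b encodes a lipid phosphatase that acts downstream of PI3K. It had 2811, 2449 and 3306 in N1c_RBPJdel cells, against 3764, 4084, 3762 and 3899 in control cells (log2 difference -0.45, SE 0.13, adjusted p = 0.0436, called under 10 of 25 alternatives). It had 3504, 4163, 3318 and 2835 in N1c cells and 3828, 3466, 4195 and 3154 in RBPJdel cells, overlapping with N1c_RBPJdel cells. Sesn3, another sestrin, had 1365, 1179 and 1318 in N1c_RBPJdel cells, against 1899.8, 2018, 1779 and 1479 in control cells (log2 difference -0.47, SE 0.13, adjusted p = 0.0318). Sesn3 had 1858, 1809, 1431 and 1315 in N1c cells and 1632, 1646, 1635 and 1670.1 in RBPJdel cells. In N1c_RBPJdel cells neither gene overlapped with control. Sesn1 had a log2 difference of -0.28 (adjusted p = 0.05), with 1772, 1917 and 1919 in N1c_RBPJdel cells, and Tsc2 one of -0.37 (adjusted p = 0.0504). Neither was called.

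**Figure D2:**
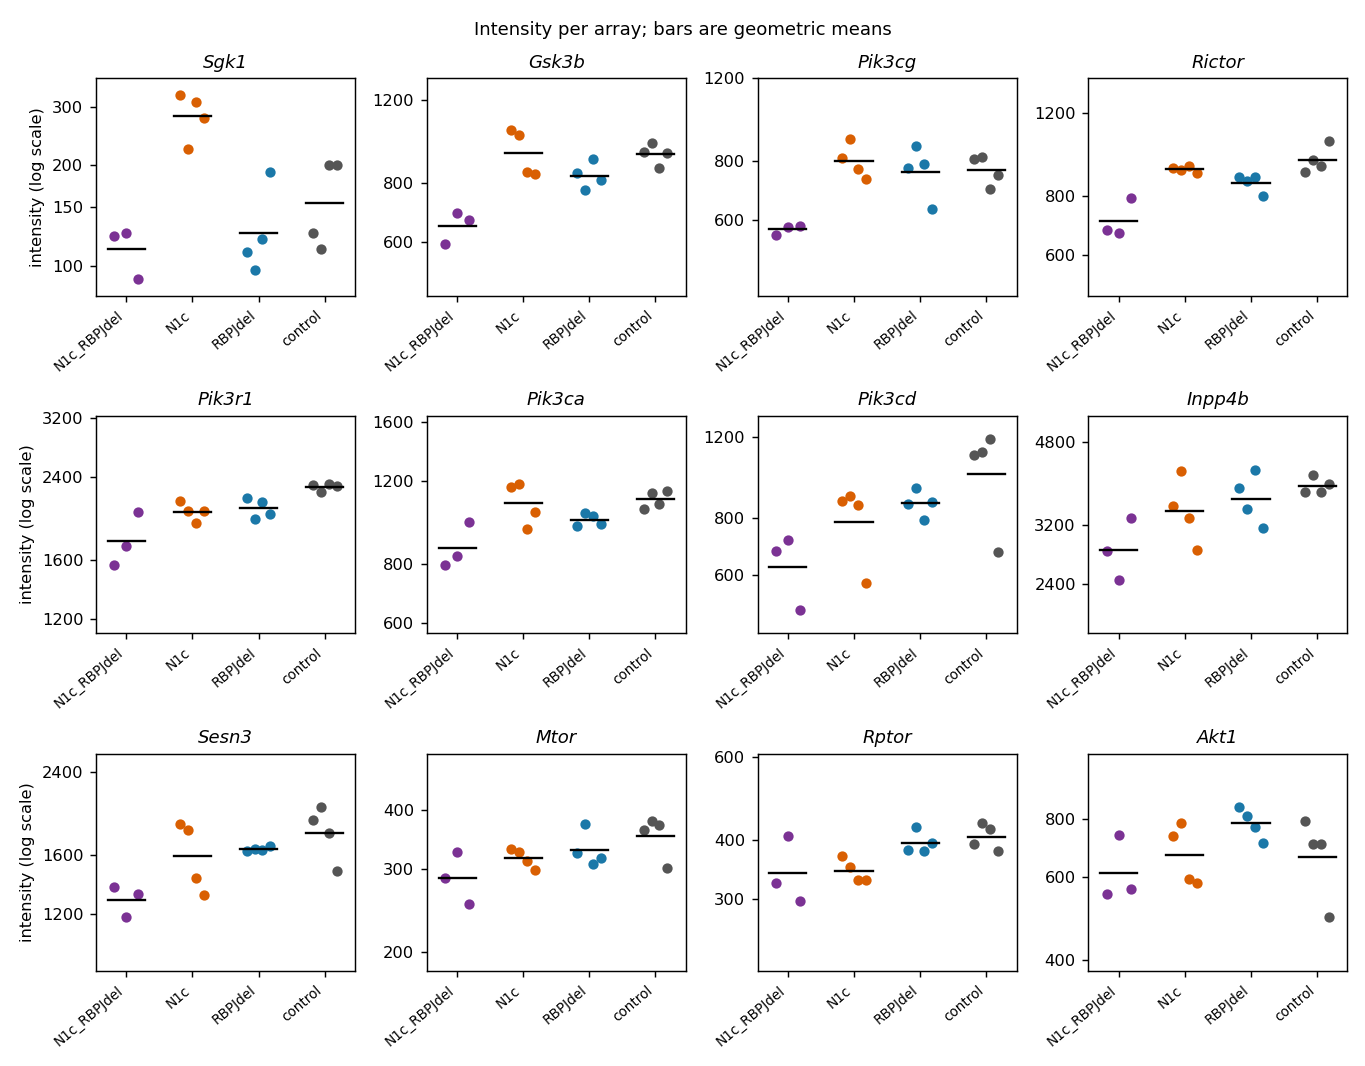
Intensity per array (log scale) of 12 genes, 1 panel each, in N1c_RBPJdel, N1c, RBPJdel and control Treg, with a bar at each geometric mean. In N1c_RBPJdel cells all 3 arrays of Gsk3b, Pik3cg and Rictor lie below every other array, and Sgk1 stands highest in N1c cells.

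mTOR itself, the Akt kinases and Raptor did not pass the test in any comparison. Mtor had 287, 326 and 253 in N1c_RBPJdel cells, 331, 326, 312 and 298 in N1c cells, 325, 373, 307 and 316 in RBPJdel cells and 363, 380.0, 372 and 302 in control cells. Its largest difference was -0.30 (N1c_RBPJdel against control, SE 0.11, adjusted p = 0.101). Akt1 had 554, 737 and 567 in N1c_RBPJdel cells, 734, 782, 595 and 584 in N1c cells, 846, 811, 766 and 709.5 in RBPJdel cells and 790.3, 708, 705 and 494 in control cells. The groups overlapped in every Akt1 comparison, and control 5 was the lowest array. Rptor had 325, 408 and 297 in N1c_RBPJdel cells and 382, 426, 379 and 394 in RBPJdel cells, beside the N1c and control values above. Akt2 had 1279, 1233 and 1071 in N1c_RBPJdel cells, 1809, 1497, 1367 and 1055 in N1c cells, 1704, 1547, 1480.1 and 1382 in RBPJdel cells and 1655, 1635, 1244 and 1014 in control cells. Its differences were -0.24 against N1c, -0.36 against RBPJdel and -0.19 against control.

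For Akt2 and for Eif4e, the cap-binding translation factor, the brightest cluster is numbered among clusters of another chromosome than the gene's own. The cluster of Akt2 numbered on its own chromosome had a log2 difference of -0.34 (SE 0.10, adjusted p = 0.0453) for N1c_RBPJdel against N1c. Eif4e had 2 clusters numbered on its own chromosome, and they ran in opposite directions. The brighter of them, at a mean of 368, had a log2 difference of -0.61 (adjusted p = 0.0295) against N1c and -0.55 (adjusted p = 0.0486) against control. The dimmer one, at a mean of 95.3, had log2 differences of 0.19 against N1c and 0.24 against control. With the brightest cluster of all, at 510.4, the Eif4e differences were -0.14 and -0.05, so the clusters of this gene disagree. This check was added after the values were seen.

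The remaining genes of the list did not pass any unpaired test as deposited. Inpp5d (SHIP1) differed by -0.33 for N1c_RBPJdel against control, Pdpk1 (PDK1) by -0.37, and Eif4ebp2, an inhibitor of Eif4e, by -0.41. Differences above 0 against control were fewer: Pik3ip1, an inhibitor of PI3K, was 0.07, Deptor, an mTOR inhibitor, 0.22, Rps6kb2, an S6 kinase, 0.18, Eif4ebp1 0.12 and Akt1s1, a Raptor-bound inhibitor, 0.02. The 3 genes of the TSC complex and Rheb ran between -0.37 and -0.03, and the Akt phosphatases Phlpp1 and Phlpp2 were -0.10 and -0.17. Pik3r5, the regulatory partner of Pik3cg, was -0.18, the mTOR-bound subunit Mlst8 -0.19, the transcription factor Foxo3 -0.29 and Ddit4 -0.06.

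**Figure D3:**
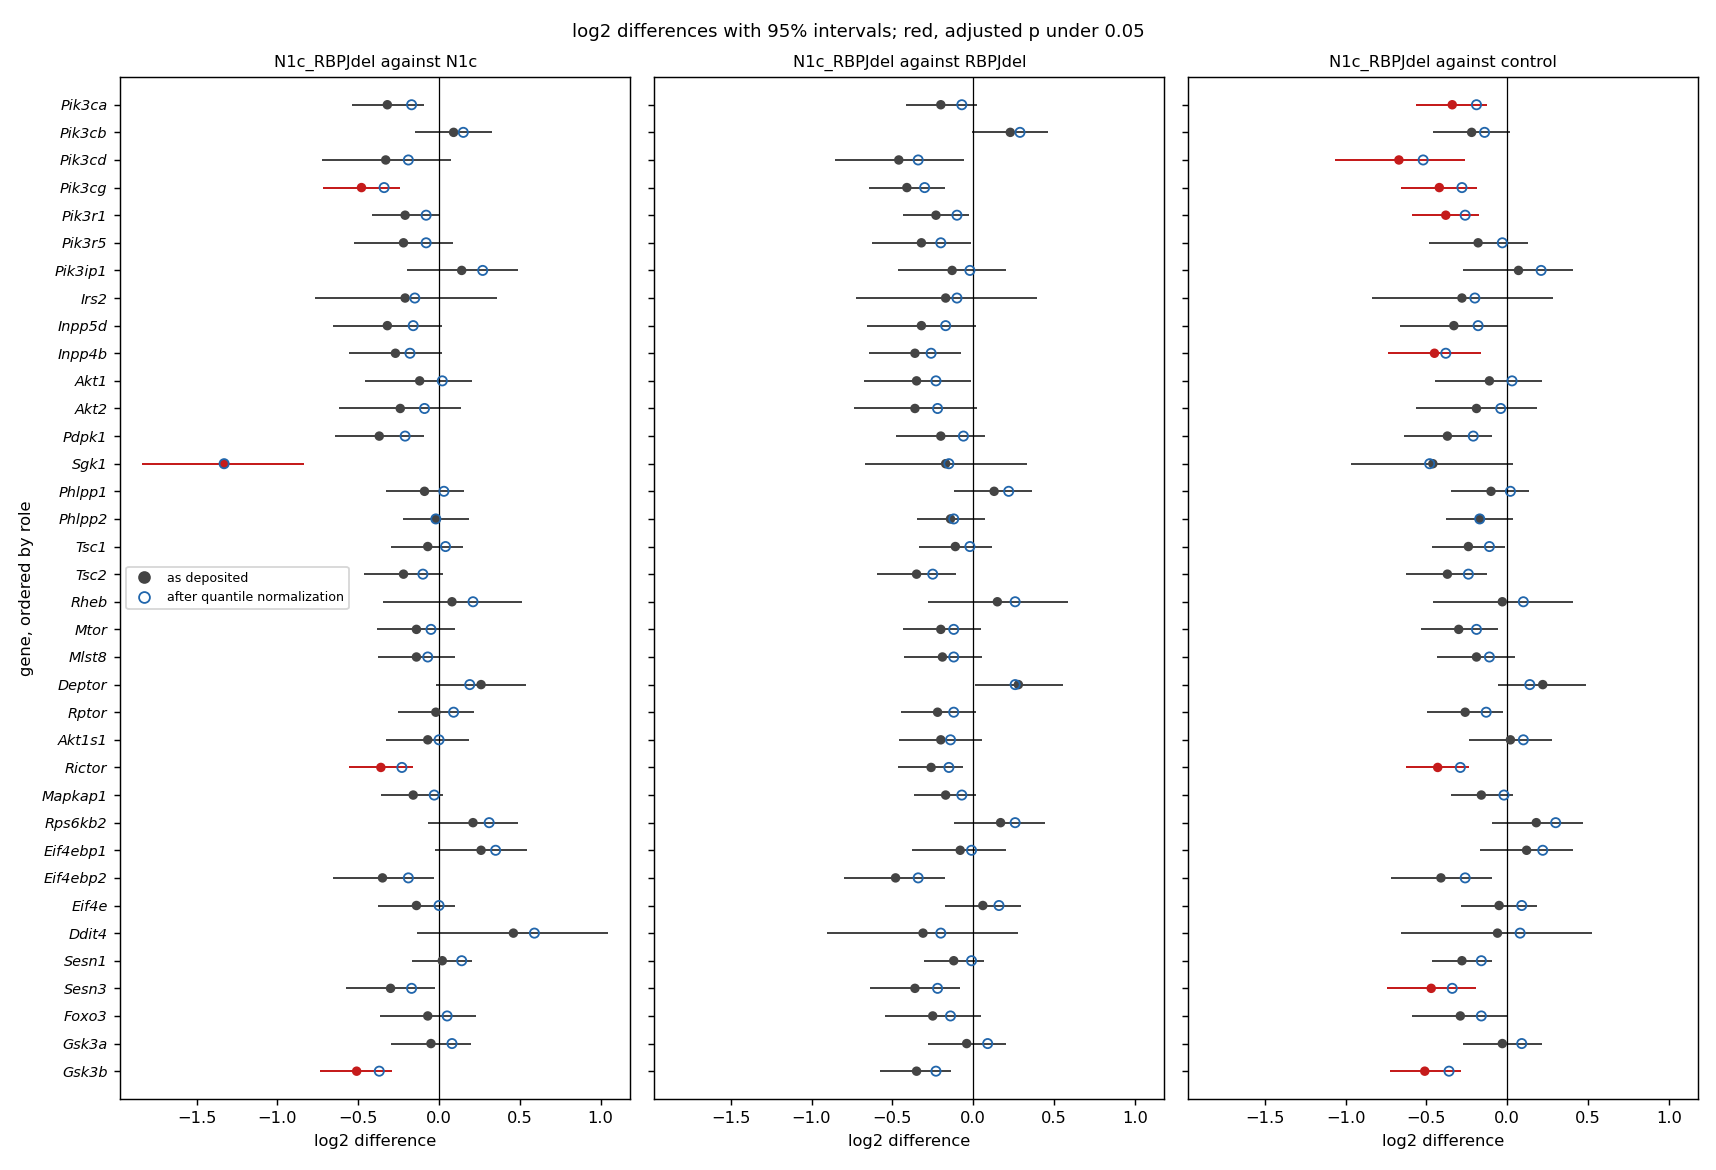
Log2 differences of the 36 genes for N1c_RBPJdel against N1c, RBPJdel and control, filled points as deposited with 95% intervals (red where the adjusted p is under 0.05), open circles after quantile normalization. Most points lie left of 0 and most circles lie nearer to 0.

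The list as a whole lay lower in N1c_RBPJdel cells, as did the brighter genes. The median log2 difference was -0.25 against control, with 31 of 36 below 0, beside a median of 0.02 for all genes and -0.10 for the genes brighter than the median. Below 0 were 46.3% of all genes and 65.4% of those brighter genes. After quantile normalization the list's median was -0.15, with 25 of 36 below 0. Against N1c it was -0.14 with 28 of 36 below 0 (46.5% of all genes and 65% of the brighter ones), and -0.04 with 21 of 36 after quantile normalization. Against RBPJdel it was -0.20 with 30 of 36 below 0 (52.2% of all genes and 66.5% of the brighter ones), and -0.12 with 29 of 36 after quantile normalization. After that normalization the brighter genes had medians of -0.02 against control, -0.00 against N1c and -0.01 against RBPJdel.

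**Figure D4:**
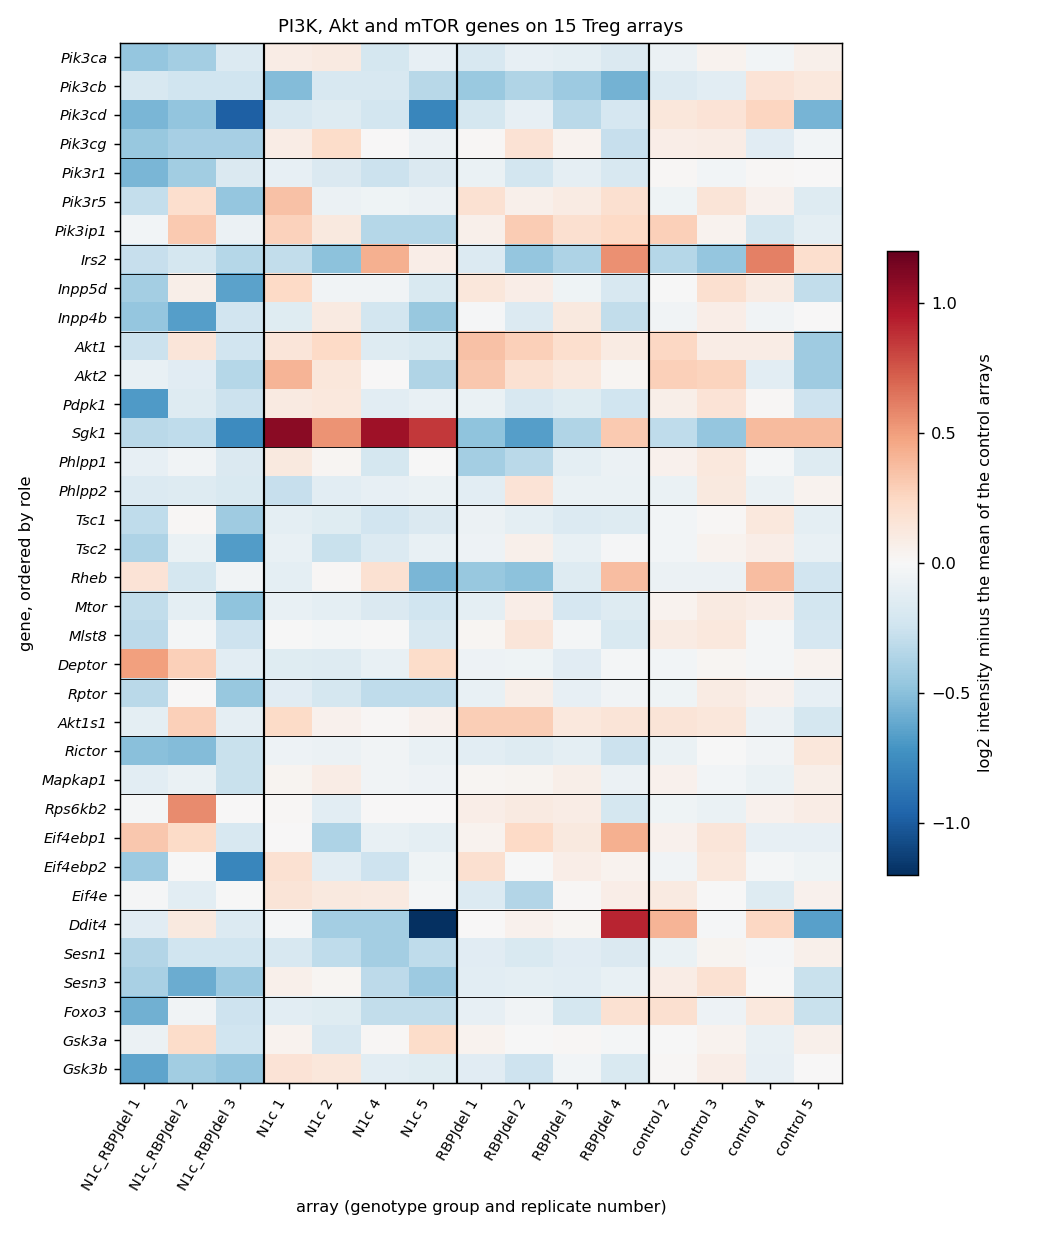
Log2 intensity of the 36 genes on each of the 15 arrays, minus the mean of the control arrays, genes ordered by role and arrays by group. Blue is below and red above the control mean, and Sgk1 is red on all 4 N1c arrays.

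Of 54 other genes of the pathway, 49 were measured. Their median log2 difference was -0.02 for N1c against control, and -0.03, -0.10 and -0.07 for N1c_RBPJdel against N1c, RBPJdel and control. All genes had medians of -0.01, 0.02, -0.01 and 0.02, and 1.65%, 9.23%, 2.29% and 8.9% of them were called. Against control, N1c cells had 1 of the 49 lower. It was Rragd, a Rag GTPase that brings amino acid signals to mTORC1, at 131, 159.9, 169 and 133 in N1c cells against 319, 227, 222 and 236 in control cells (log2 difference -0.75, adjusted p = 0.00249). In N1c_RBPJdel cells against N1c cells, 3 were higher and 4 lower, and Rragd was among the higher ones (0.63, adjusted p = 0.00932). Against control, 2 were higher and 5 lower. Foxo1, the FOXO factor that controls homing and survival genes in T cells, had 1135, 1482 and 1287 in N1c_RBPJdel cells, against 1858, 1954, 2161 and 1964 in control cells (log2 difference -0.61, SE 0.11, adjusted p = 0.00529). It was also lower against N1c (-0.43, adjusted p = 0.024) and RBPJdel (-0.47, adjusted p = 0.0377), but neither call held with quantile-normalized values (adjusted p = 0.0974 against N1c, adjusted p = 0.0798 against RBPJdel), and they were made under 17 and 14 of 25 alternatives. The call against control was made under 23. Pik3r6, a regulatory subunit that partners Pik3cg, was higher by 0.43 against each of N1c (adjusted p = 0.0158), RBPJdel (adjusted p = 0.0385) and control (adjusted p = 0.0176). It was dim, with a mean intensity of 90.9 over all arrays, below the median of 109 for all genes. The Pik3r6 call against RBPJdel was made under only 9 of 24 alternatives, with adjusted p up to 0.286, and the calls against N1c and control under 19 each.

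Of 14 FOXO target genes 12 were measured. Their median log2 difference was -0.21 for N1c against control, and -0.15, -0.08 and -0.18 for N1c_RBPJdel against N1c, RBPJdel and control. All genes had medians of -0.01, 0.02, -0.01 and 0.02, and 1.65%, 9.23%, 2.29% and 8.9% of them were called, with 0.84% in the interaction. In N1c cells 3 of the 12 were lower than in control cells: Il7r, the interleukin-7 receptor chain (-0.55, adjusted p = 0.0105), Bach2, a repressor of effector differentiation (-0.58, adjusted p = 0.0155), and S1pr1, an exit receptor (-0.52, adjusted p = 0.0189). In N1c_RBPJdel cells, Bach2 (-0.96, adjusted p = 0.00116) and S1pr1 (-0.67, adjusted p = 0.00523) were lower than in control cells, and also lower than in RBPJdel cells (-0.74, adjusted p = 0.0119 for Bach2 and -0.58, adjusted p = 0.0244 for S1pr1). Il7r was higher in N1c_RBPJdel cells than in N1c cells (0.90, adjusted p = 0.00013), and its interaction was called as deposited (0.71, adjusted p = 0.0459) but under only 9 of 23 alternatives. Of 27 genes raised by mTORC1 activity 25 were measured. Mthfd2, a mitochondrial folate enzyme, was the 1 called in N1c cells (0.52, adjusted p = 0.0241), and it was lower in N1c_RBPJdel cells against N1c cells (-0.59, adjusted p = 0.00834). Called lower in N1c_RBPJdel cells were also Hmgcs1, a sterol synthesis enzyme, against control (-0.57, adjusted p = 0.0413, called under 12 of 25 alternatives), and against RBPJdel the fatty acid desaturase Scd2 (-0.67, adjusted p = 0.0261) and the amino acid transporter subunit Slc7a5 (-0.75, adjusted p = 0.0281), each called under 18 of 25. Median log2 differences of these 25 in N1c_RBPJdel cells were -0.15 against N1c, -0.21 against RBPJdel and -0.08 against control, beside 0.02, -0.01 and 0.02 for all genes. They were -0.05 for N1c against control and 0.12 for RBPJdel against control, beside -0.01 and 0.03, and -0.28 for the interaction, beside -0.01.

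Irs2 encodes an adaptor that couples insulin and cytokine receptors to PI3K, and its log2 difference for N1c_RBPJdel against control was -0.28. It followed the replicate number more than the genotype, a pattern found after its values were seen and given with no test. In the MoFlo groups, the 5 arrays numbered 4 or 5 had 276 to 398 and the 7 numbered 1 to 3 had 186 to 233, with no overlap. Pik3cg and Akt2 also separated without overlap, but in the opposite direction. Pik3cg had 634 to 770.0 at numbers 4 or 5 and 776 to 893 at numbers 1 to 3. Akt2 had 1014 to 1382 and 1480.1 to 1809. A separation in either direction was thus seen for 3 of the 36 genes, or 8.33%, beside 2.32% of all genes.

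**Figure D5:**
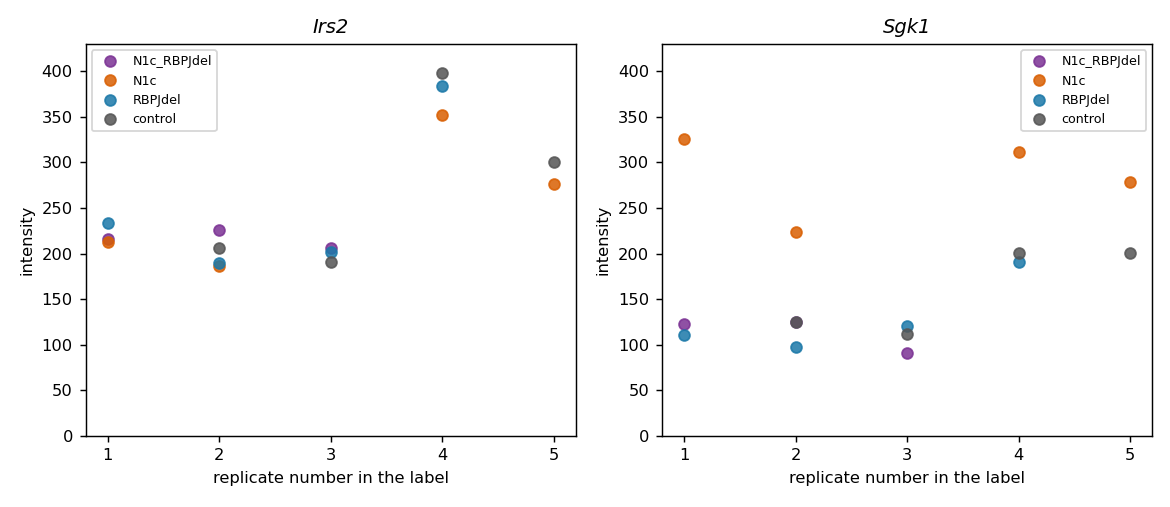
Intensity of Irs2 (left) and Sgk1 (right) by the replicate number in the label, coloured by group. Irs2 lies between 276 and 398 at numbers 4 and 5 of the MoFlo groups and between 186 and 233 at numbers 1 to 3, and Sgk1 is highest in N1c at every number it has.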

How the data were processed

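Treg RNA was measured on 15 Affymetrix Mouse Gene 1.0 ST arrays. The deposited intensity values were made by the authors with Affymetrix Power Tools and RMA, per the submitters' processing notes (versions not given in the sources used here). They are on a linear scale and were converted to log2 here. Of 24922 features, 21425 name 1 gene, 1399 several and 2098 none; the brightest per gene gave 19752 genes. Groups followed the sample titles. limma 3.58.1 in R 4.3.3 fitted 1 mean per group over all 15 arrays (11 residual and 6.15 prior degrees of freedom), with Benjamini-Hochberg adjustment over all genes and a threshold of 0.05. The fit was tested on simulated data. The number of arrays limits the precision. Intensities given for groups are single arrays.

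The members and lists were chosen with earlier results of these data known. All members are described by role. Every-array values are given for members called in a comparison, for Rictor, Mtor, Rptor, Akt1 and Akt2, and for the 4 lowest adjusted p of N1c against control; from other lists, up to 4 called genes a comparison. Same-numbered N1c and control arrays deviated together (r = 0.417, 0.341 and 0.497), so their numbers were taken as pairs. Differently numbered arrays of these groups had r between -0.426 and 0.371, and N1c 2 with control 3 had 0.35. The pairs are therefore not certain. Other groups were not taken as pairs. RBPJdel 4 nevertheless deviated together with N1c 4 (r = 0.457) and control 4 (r = 0.417). The remaining same-numbered arrays of different groups had r between -0.12 and 0.237. Alternatives were quantile normalization, cluster means, brighter genes, replicate block, groups compared only, array weights, trended variances and leaving out each array; 2 more were added after seeing the data.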

Additional observations from a re-analysis of the deposited data

Results flagged for a closer look

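Of 108 sets of 4 arrays (a gene in a group), 11 had 1 array far from the other 3 by Dixon's test, where chance gives about 1 in 20. In N1c cells these were Pik3cd on array 5 (577, others 851 to 891), Pik3r5 on array 1 (875, others 653 to 664), Mlst8 on array 5 (225, others 253 to 256), Deptor on array 5 (57.8, others 44.5 to 46.5) and Rps6kb2 on array 2 (274, others 299 to 301). In RBPJdel cells they were Phlpp2 on array 2 (161, others 132 to 136), Rps6kb2 on array 4 (258, others 315 to 321) and Ddit4 on array 4 (959, others 513 to 529). In control cells they were Pik3cd on array 5 (674, others 1095 to 1187), Pik3r1 on array 3 (2234, others 2302 to 2316) and Eif4ebp2 on array 3 (1692, others 1496 to 1525).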

How the results depend on the processing

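No direction was reversed for any called gene of the list under the alternatives run. For N1c against control, 0 of the 36 were called (0 to 1 leaving out single arrays: 1 without N1c 2, RBPJdel 4, control 4 or control 5), 1 after quantile normalization, 2 among brighter genes, 1 with the replicate block over all arrays, 2 with the block in the groups alone, 2 with array weights and 1 with N1c_RBPJdel 2 alone. All genes called were 326 (217 to 383, lowest without control 4), 494 with the block over all arrays, 388 with the block in the groups alone and 733 with array weights. For RBPJdel against control, 0 of the 36 were called (0 to 0) and 1 with array weights; all genes called were 22 (15 to 26), 189 with array weights and 45 with the block in the groups alone. For N1c_RBPJdel against N1c, 4 were called (3 to 9, highest without N1c_RBPJdel 2), 2 after quantile normalization, 10 with the replicate block over all arrays, 1 in the groups alone, 1 with the block there and 2 with N1c_RBPJdel 2 alone; all genes called were 1823 (903 without N1c_RBPJdel 1 to 3058 without N1c_RBPJdel 2; 964 without N1c 1, 932 without N1c 2), 1187 among brighter genes, 3699 with the block, 561 in the groups alone, 368 with the block there and 854 with N1c_RBPJdel 2 alone. Against RBPJdel, 0 were called (0 to 7, 7 without N1c_RBPJdel 2; 1 without N1c_RBPJdel 3, N1c 5 or RBPJdel 4) and 8 with the block; all genes called were 452 (76 without N1c_RBPJdel 1 to 1890 without N1c_RBPJdel 2; 121, 112 and 79 without RBPJdel 1, 2 and 3; 300 without control 3), 192 among brighter genes, 2107 with the block, 98 in the groups alone and 226 with N1c_RBPJdel 2 alone. Against control, 8 were called (1 without N1c_RBPJdel 1 to 13 without N1c_RBPJdel 2; 2, 2 and 3 without control 2, 3 and 4), 1 after quantile normalization, 13 with the block, 1 in the groups alone, 2 with the block there and 2 with N1c_RBPJdel 2 alone; all genes called were 1757 (530 without N1c_RBPJdel 1 to 3088 without N1c_RBPJdel 2; 743, 675 and 850 without control 2, 3 and 4), 1169 after quantile normalization, 3767 with the block, 406 in the groups alone, 955 with the block there and 732 with N1c_RBPJdel 2 alone. Quantile normalization moved the share of higher calls there to 53.3%, against 42.4% as deposited. For the interaction, 0 were called (0 to 0) and 1, Pik3cg, with the block; all genes called were 166 (101 to 478, highest without N1c_RBPJdel 2, and 101, 102 and 101 without RBPJdel 1, 2 and 3), 632 with the block and 257 with array weights. The cause of these moves was not tested. Outside N1c and control the numbers were not taken as pairs, though RBPJdel 4 deviated together with N1c 4 and control 4. Calls lost or gained under the block there do not show a weaker or stronger effect.

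The setting with N1c_RBPJdel 2 alone was chosen after seeing the data, and its recorded ground was that arrays 1 and 3 held the highest erythroid and B cell markers. The values do not bear this out: Car1 was 852, 400.0 and 137 and Cd22 was 130.5, 195 and 115 on N1c_RBPJdel arrays 1, 2 and 3. Arrays 1 and 3 did share the lowest upper quartile of all genes, which was noticed after the results of that setting were known.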
